A study of Homo sapiens with 9 samples.

Results

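The genes described here are 38 named members of the NRF2 system, the glutathione and thioredoxin systems and the enzymes that work with them. They were chosen by symbol, with earlier results of these data known, and matched to the Ensembl identifiers of the count files. They make up 38 of the 62703 genes listed. All 38 passed the filter on low counts, among 17623 genes tested. HepG2, a cell line from a human hepatocellular carcinoma, was compared in 3 groups of 3 RNA-sequencing libraries each. Controls received no drug, and the labels give no time for them. Treated cultures received eliglustat, an inhibitor of glucosylceramide synthase, at 20 µM or at 30 µM for 72 h. All libraries come from this single line. The labels do not state whether replicate libraries were grown as separate cultures, so the p-values reflect library-to-library spread that may be purely technical.

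NRF2 is a transcription factor of the cap-n-collar family that is kept scarce by KEAP1, an adaptor that hands it to a ubiquitin ligase for destruction. Oxidants and electrophiles that modify KEAP1 let NRF2 accumulate, pair with a small MAF protein and bind antioxidant response elements, which BACH1 can otherwise occupy. The targets supply glutathione and thioredoxin, regenerate NADPH and detoxify quinones, aldehydes and heme, tasks that are prominent in liver cells.

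The core of the antioxidant response element, TGACNNNGC on either strand, was searched for in RefSeq promoters (GRCh38.p14, 250 bases before to 50 bases after the start), which were found for 29 of the 38 members. MAFK, SLC7A11, GSS, GSR, PRDX1, PRDX6, SOD1, HMOX1 and AKR1B10 had no entry. The core was present in 5 of the 29 windows (17.2%), those of GCLM, GPX2, TXNRD1, PGD and PIR, against 4687 of 35116 windows of the same length over all genes (13.3%). The related AP-1 motif TGANTCA, whose letters the antioxidant core can contain, was present in 2 of 29 member windows (6.9%), against 7.71% of all windows. The 4 matches that end before the start are shown because their genes differ widely in their response below. Each is read on the strand of its gene, with the core in capitals. The core of PIR, GCTGAGTCA at position 26 after the start, is not shown. It contains TGAGTCA, so this site counts for both motifs. A core on the opposite strand reads GCNNNGTCA, and no core shown overlaps TGANTCA.
TXNRD1: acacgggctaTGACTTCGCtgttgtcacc
GCLM: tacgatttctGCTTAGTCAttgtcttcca
GPX2: acctgtttttGCTAAGTCAtcctggggat
PGD: cctcgccgggGCAATGTCAtctaggtgct
The TXNRD1 stretch is at chr12:104215670-104215698 (plus strand), with its core on the strand of the gene at positions -99 to -91 from the start, outside the gene as GENCODE 29 draws it. That of GCLM is at chr1:93909446-93909474 (minus strand), with the core at -34 to -26, and 11 of its 29 bases lie in a 5′ untranslated exon in GENCODE 29. That of GPX2 is at chr14:64942849-64942877 (minus strand), with the core at -122 to -114, in an untranslated exon of a GENCODE 29 transcript. That of PGD is at chr1:10398853-10398881 (plus strand), with the core at -201 to -193, within the gene but in no exon in GENCODE 29. In GCLM, GPX2 and PGD the core is on the strand opposite to the gene. TXNRD1 has a second core on the opposite strand, which begins at -8 and is not shown because it reaches the start. A match describes letters in a window and does not show that a factor binds there.

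Totals over genes ran between 21103757 and 26782810 counts per library, and 40.6% to 44.0% of records were assigned to no single gene. Alignments that were not unique made up 12.4% to 12.8% of records in control. They made up 13.3% to 15.5% at 20 µM and 14.8% to 19.45% at 30 µM, and their part in the changes below was not tested. Mitochondrial transcripts made up 3.01% to 4.02% of counts in control, 3.52% to 3.89% at 20 µM and 5.23% to 5.90% at 30 µM. Levels are given as CPM, counts relative to the TMM-scaled library total, and changes as log2 ± SE from edgeR's quasi-likelihood test, with Benjamini-Hochberg adjustment over all 17623 genes. A gene is said to have risen or fallen only where the adjusted p was under 0.05. The library of control replicate 1, that of 20 µM replicate 3 and that of 30 µM replicate 3 deviated together from their group means (correlations 0.331 to 0.352), and each had the highest share of mitochondrial transcripts in its group. Without these 3 libraries, 33 members passed the test between 30 µM and control, 24 between 20 µM and control and 30 between the doses, where all 9 libraries gave 31, 25 and 30. All 10 hepatocyte markers had counts in each group, and their sum ranged over 31590 to 32570 CPM in control, 35080 to 35520 CPM at 20 µM and 39520 to 39900 CPM at 30 µM. APOB made up most of that sum, averaging 19950 CPM in control, 21521 CPM at 20 µM and 27773 CPM at 30 µM. Without APOB the other 9 summed to 11850 to 12280 CPM in control and 11660 to 12410 CPM at 30 µM. At 20 µM they summed to 13300 to 14110 CPM. Singly they went both ways at 30 µM against control. Averages were lower at 30 µM for ALB (485 against 669 CPM), AFP (938 against 1343), FGB (480 against 614), HNF4A (555 against 651) and TM4SF4 (0.27 against 0.48). They were higher for TTR (58.1 against 24.4 CPM) and SERPINA1 (5394.9 against 4584.5). APOA1 (1883 against 1897 CPM) and TF (2146 against 2208) differed little. White blood cell markers summed to at most 0.869 CPM, with PTPRC and LST1 at 0, and endothelial markers to at most 6.34 CPM. The 6 fibroblast and stellate markers summed to 33.9 to 40.7 CPM in control, 34.5 to 36.5 CPM at 20 µM and 23.3 to 25.9 CPM at 30 µM, most of it ACTA2, with COL1A2 and DCN at 0 in all libraries. Within the fibroblast and stellate list, ACTA2 averaged 21.5 CPM at 30 µM and 36.0 CPM in control. PDGFRB went the other way, at 3.01 CPM at 30 µM and 0.85 CPM in control. The part of these marker shifts in the changes below was not tested. In RNA from whole cultures, a change in RNA per cell and a change in the mix of cell states cannot be told apart.

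At 30 µM the members past the test were mostly higher than in control, led by the small MAF genes, the glutathione-making enzymes GCLC and GCLM, the thioredoxin side genes SRXN1 and TXNRD1, and the aldo-keto reductases. Against control, 24 of the 38 members rose and 7 fell, so 31 passed the test, 81.6%, where 60.8% of all genes tested did and 75.7% of genes with a mean of at least 5 CPM did, so the share past the test was near that of expressed genes. Higher calls made up 29.5% of all genes tested and lower calls 31.3%. A rise of at least 1 log2 unit was reached by 13 members, against 7.84% of all genes, and a fall of that size by 0 members, against 8.18%. Libraries at 30 µM and in control were fully separated for 32 members, against 65.0% of all genes. The median log2 change was 0.37 over the members, from -0.69 to 2.69, and -0.04 over all genes. The summed level of the 38 members was 11494 ± 37.9 CPM at 30 µM and 7465 ± 33.9 CPM in control (SD, n = 3 each).

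At 20 µM the changes were smaller and went both ways, with the highest values for SRXN1 (log2 0.65), BLVRB and SOD2 (0.44 each) and GCLC (0.38), and the lowest for HMOX1 (-0.40), PIR (-0.33) and PRDX1 (-0.25). Against control, 15 members rose and 10 fell, so 25 of 38 passed the test, where 34.2% of all genes and 49.6% of genes with a mean of at least 5 CPM did. Higher calls made up 17.2% of all genes and lower calls 16.9%. Of the members, 0 changed by 1 log2 unit, against 1.75% of all genes, and the libraries did not overlap for 24, against 44.5% of all genes. The median log2 change was 0.04, from -0.40 to 0.65, and the summed level was 7482 ± 122 CPM at 20 µM and 7465 ± 33.9 CPM in control (SD, n = 3 each).

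Between the doses, MAFK (log2 2.39), GCLC (2.04) and GCLM (1.85) differed most upward at 30 µM and CAT most downward (-0.83). In all, 25 members were higher at 30 µM than at 20 µM and 5 were lower, so 30 of 38 passed the test, against 57.0% of all genes and 72.2% of genes with a mean of at least 5 CPM. Higher calls made up 28.0% of all genes and lower calls 28.9%. A difference of at least 1 log2 unit upward was reached by 11 members, against 5.19% of all genes, and 31 members did not overlap, against 61.1%. Both comparisons with control share the control libraries, and the comparison between doses shares a treated group with each. Throughout, shares for dose patterns, for 1 log2 unit and for separated libraries are over all genes tested. Genes with a mean of at least 5 CPM passed the test more often, and those shares were not computed for such genes alone. The most frequent pattern, higher at 30 µM than in either other group, held for 23 members, against 23.2% of all genes. Of these, NFE2L2, KEAP1, SLC7A11, GCLM, TXN, TKT and AKR1C2 did not pass the test at 20 µM against control. A looser pattern, not past the test at 20 µM and higher at 30 µM than in control, sets no condition between the doses. It held for the same 7 of 38 members, against 15.7% of all genes, and for 11 members without 20 µM replicate 2. A further pattern, lower at 20 µM and higher at 30 µM than in control, held for GSR, TALDO1, NQO1, AKR1B10 and UGDH, 5 of 38 members against 2.06% of all genes. This count rests on single libraries: without control replicate 2 TALDO1 and AKR1B10 were lost, without 20 µM replicate 2 TALDO1 and UGDH were lost, each leaving 3, and without control replicate 1 there were 6, with GCLM and TXN in and TALDO1 out. With scaling by library size alone, which moved the median log2 change of all genes between 30 µM and control to -0.25, 21 members rose and 12 fell in that comparison, as did 3530 and 8022 of all genes. Between the doses the median moved to -0.22, and 3029 of all genes were higher and 7690 lower at 30 µM. Under that scaling 24 members were higher and 12 lower between the doses, and under upper-quartile scaling 24 were higher and 9 lower.

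**Figure D1:**
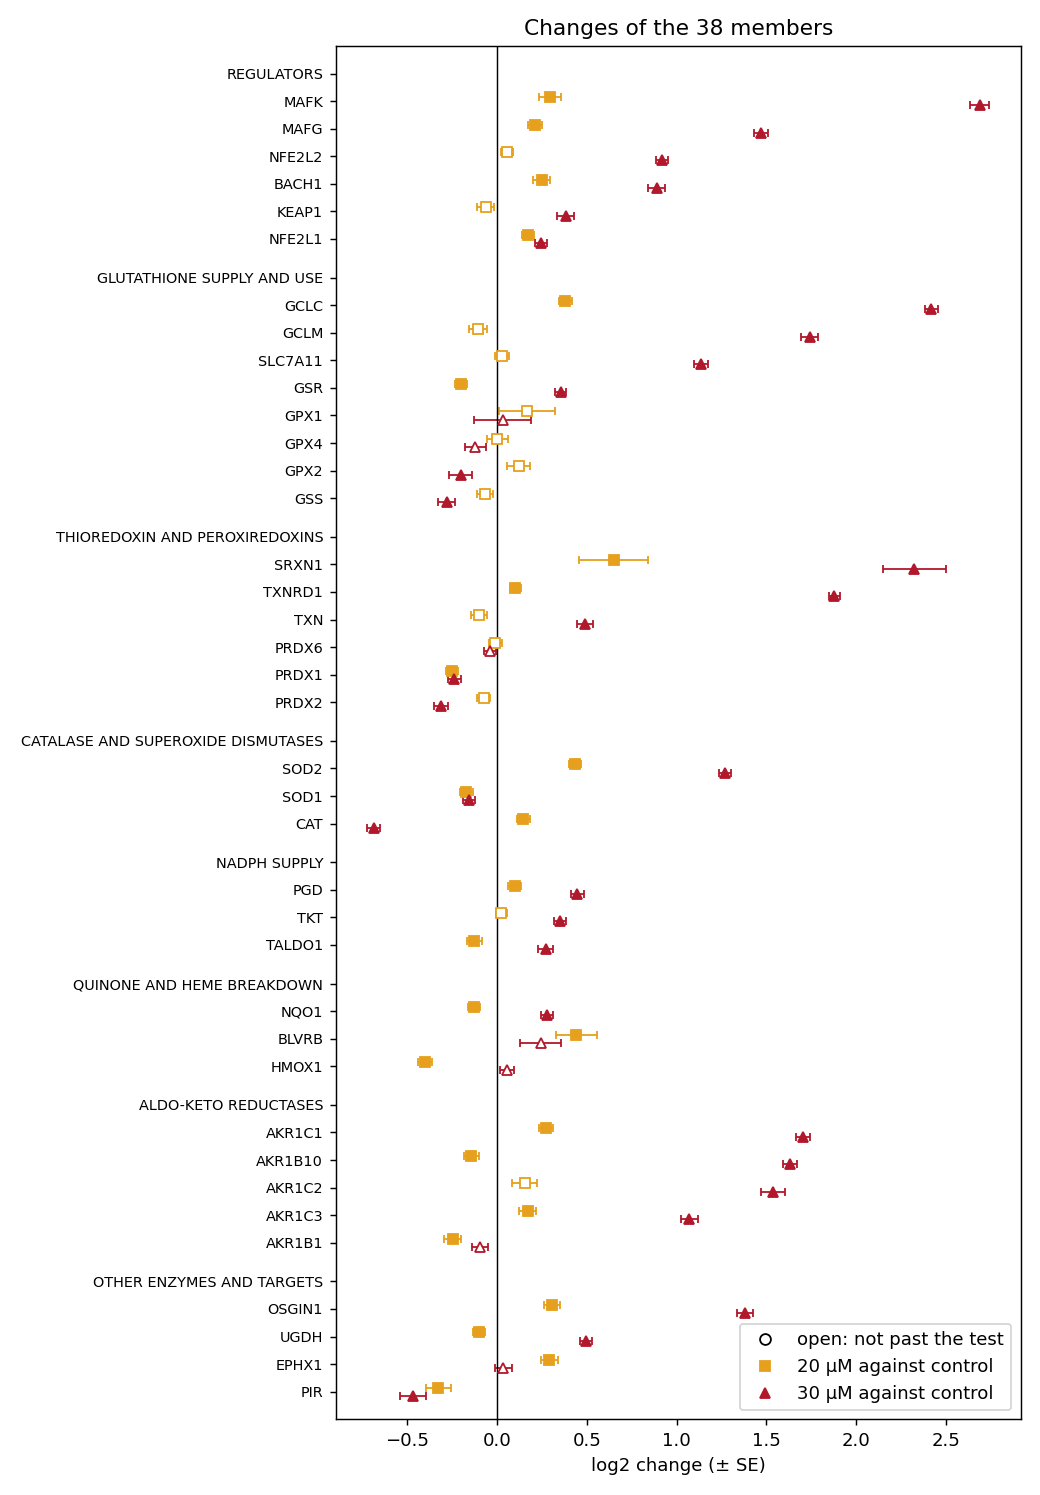
Log2 change (horizontal axis, ± SE) of each of the 38 members at 20 µM (squares) and at 30 µM (triangles) against control, grouped by role, with open symbols for changes that did not pass the test. Changes at 20 µM lie between -0.40 and 0.65, and those at 30 µM reach 2.69 for MAFK and -0.69 for CAT; with scaling by library size alone EPHX1, GPX1 and HMOX1 at 30 µM and GPX4 at 20 µM change sign.

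The regulators rose together at 30 µM, when all 6 passed the test against control, except that NFE2L1 did not with library size alone (log2 0.03, edgeR adjusted p = 0.382). NFE2L2 (ENSG00000116044.17, chromosome 2, 177227595 to 177392697, minus strand, hg38 with GENCODE 29), which encodes NRF2, had 176, 176 and 176 CPM in the control libraries, 188, 181 and 179 CPM at 20 µM and 337, 334 and 326 CPM at 30 µM. All 3 libraries at 30 µM stood far above the other 6, and those at 20 µM lay just above control without passing the test (log2 0.06 ± 0.034, edgeR adjusted p = 0.206). The level at 30 µM was 1.89-fold that of control (log2 0.92 ± 0.034, edgeR adjusted p = 6.07e-22). Of the NFE2L2 exon windows of 75 bases, 12.8% also occur in overlapping transcripts of other genes.

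KEAP1 (ENSG00000079999.14, chromosome 19, 10486120 to 10503741, minus strand) had 75.4, 76.5 and 73.9 CPM in control, 66.7, 74.8 and 74.5 CPM at 20 µM and 99.2, 93.5 and 101 CPM at 30 µM. Control and 20 µM overlapped, and all 30 µM libraries were higher than either. The gene for NRF2's inhibitor was thus 1.30-fold higher at 30 µM than in control (log2 0.38 ± 0.046, edgeR adjusted p = 1.08e-08) and 1.36-fold higher than at 20 µM.

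Of the small MAF partners, MAFK (ENSG00000198517.10, chromosome 7, 1530714 to 1543043, plus strand) had the largest rise of all members at 30 µM. Its level was 18, 18.2 and 19.2 CPM in control, 22.8, 22.4 and 22.7 CPM at 20 µM and 113, 119 and 125 CPM at 30 µM. The 3 groups did not overlap and stood in the order of dose. MAFK was 6.44-fold higher at 30 µM than in control (log2 2.69 ± 0.054, edgeR adjusted p = 3.50e-29) and 1.23-fold higher at 20 µM than in control (log2 0.30 ± 0.060, edgeR adjusted p = 0.000161). TMEM184A overlaps it and shares 16.5% of its 75-base windows. MAFG, a further small MAF partner, averaged 236 ± 9.39 CPM at 30 µM and 85.2 ± 1.33 CPM in control (SD, n = 3 each), a 2.77-fold rise, and rose 1.16-fold at 20 µM.

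BACH1, the repressor that competes for the same elements, also rose at each dose. It averaged 70.7 ± 3.80 CPM in control, 83.9 ± 5.80 CPM at 20 µM and 131 ± 3.27 CPM at 30 µM (SD, n = 3 each). NFE2L1, a relative of NRF2 known for driving proteasome genes, rose 1.18-fold at 30 µM and 1.13-fold at 20 µM against control, and the test did not separate the doses (log2 0.07, edgeR adjusted p = 0.0744). That result varied with the scaling. NFE2L1 was called higher at 30 µM than at 20 µM with median-ratio factors (edgeR adjusted p = 0.0281) and with DESeq2 (DESeq2 adjusted p = 0.0298). With library size alone it was called lower (log2 -0.12, edgeR adjusted p = 0.0027).

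**Figure D2:**
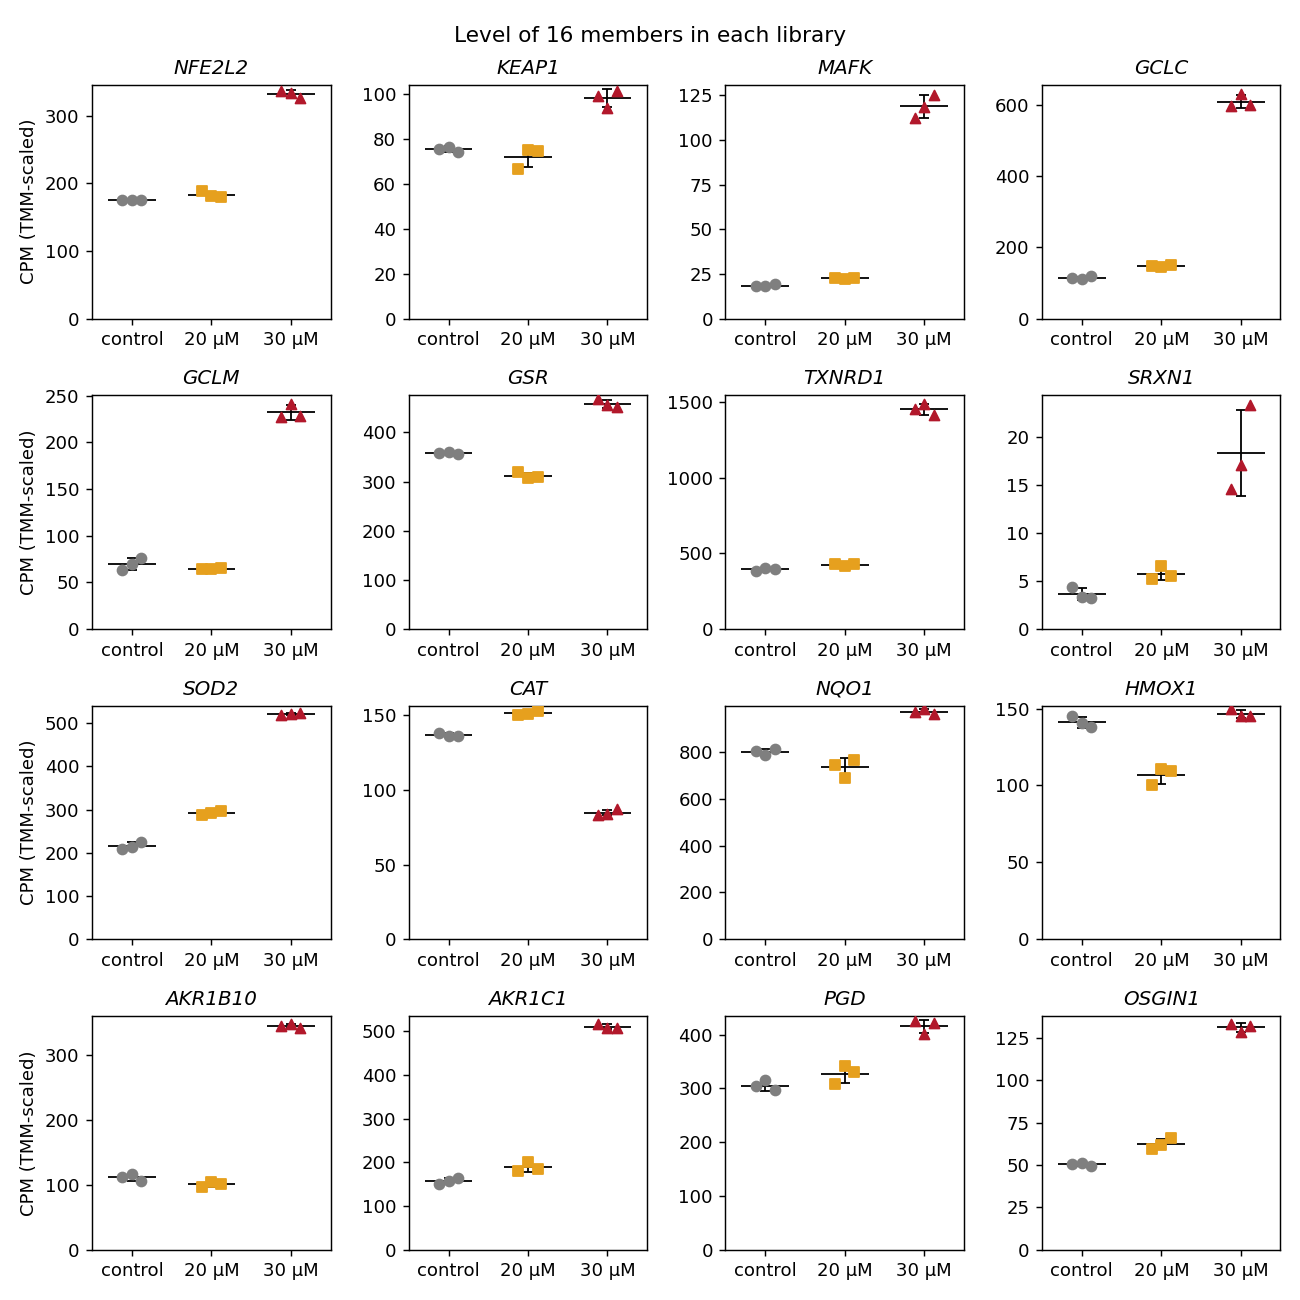
CPM (vertical axis, from 0) of 16 members in each library of control (circles), 20 µM (squares) and 30 µM (triangles), with the group mean as a line and the SD as a bar. For MAFK, GCLC, GCLM, TXNRD1, AKR1B10 and AKR1C1 the 30 µM libraries lie well clear of both other groups, CAT is lowest at 30 µM, and HMOX1 is lowest at 20 µM.

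In glutathione supply and use, the rise at 30 µM lay in cystine import and in the rate-limiting step, while the final synthesis step fell. SLC7A11, GCLC, GCLM and GSR rose at 30 µM, GSS and GPX2 fell, and GPX1 and GPX4 did not pass the test. At 20 µM only GCLC rose and only GSR fell among the 8.

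GCLC (ENSG00000001084.13, chromosome 6, 53497341 to 53616970, minus strand), the catalytic subunit of glutamate-cysteine ligase, had 113, 110 and 118 CPM in control, 148, 145 and 151 CPM at 20 µM and 596, 629 and 598 CPM at 30 µM. The groups stood in the order of dose with no overlap. The gene was 5.34-fold higher at 30 µM than in control (log2 2.42 ± 0.036, edgeR adjusted p = 1.4e-32) and 1.30-fold higher at 20 µM than in control (log2 0.38 ± 0.036, edgeR adjusted p = 2.82e-10). GCLM, the modifier subunit whose promoter stretch with the core near the start is shown above, was chosen for values per library after they were seen, as were TXNRD1, GPX2 and HMOX1. It had 63.4, 69.1 and 76.0 CPM in control, 64.1, 64.3 and 65.1 CPM at 20 µM and 227, 242 and 228 CPM at 30 µM. Control and 20 µM overlapped, and 30 µM was 3.34-fold above control (log2 1.74 ± 0.048, edgeR adjusted p = 1.21e-22). Without control replicate 1, GCLM fell at 20 µM (log2 -0.17, edgeR adjusted p = 0.00552).

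At 20 µM against control GCLC passed the test and GCLM did not, and the difference between them was not tested. The CPM of GCLC over that of GCLM, which is not corrected for length and is read only across groups, was 1.78, 1.60 and 1.56 in control, 2.30, 2.25 and 2.33 at 20 µM and 2.62, 2.60 and 2.62 at 30 µM. SLC7A11, the cystine and glutamate exchanger that brings in the cysteine for glutathione, averaged 153 ± 7.55 CPM in control, 156 ± 2.91 CPM at 20 µM and 338 ± 14.5 CPM at 30 µM (SD, n = 3 each), a 2.20-fold rise at 30 µM.

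GSS, glutathione synthetase, had 73.6, 77.8 and 70.9 CPM in control, 69.2, 71.0 and 71.7 CPM at 20 µM and 58.4, 61.3 and 63.1 CPM at 30 µM. The 30 µM libraries lay below all others, a 1.21-fold lower level than in control (log2 -0.28 ± 0.047, edgeR adjusted p = 3.60e-06). GSR, the NADPH-using reductase of oxidised glutathione, had 357, 361 and 357 CPM in control, 319, 307 and 310 CPM at 20 µM and 467, 455 and 451 CPM at 30 µM. Its lowest group was 20 µM and its highest 30 µM, with no overlap between any of the 3. Against control, GSR was 1.15-fold lower at 20 µM (log2 -0.20 ± 0.031, edgeR adjusted p = 4.10e-06) and 1.28-fold higher at 30 µM (log2 0.35 ± 0.031, edgeR adjusted p = 7.42e-12).

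The glutathione peroxidases, which use glutathione to reduce peroxides, did not join the rise. GPX2, whose promoter stretch carries the core inside an untranslated exon, had 505, 479 and 423 CPM in control, 502, 534 and 493 CPM at 20 µM and 415, 385 and 421 CPM at 30 µM. Control and 20 µM overlapped, and 30 µM lay below both by a small margin. The fall at 30 µM against control (log2 -0.20 ± 0.066, edgeR adjusted p = 0.0248) was lost without control replicate 2 (edgeR adjusted p = 0.0655). Without control replicate 1, GPX2 rose at 20 µM (log2 0.18, edgeR adjusted p = 0.0190). GPX4, which reduces lipid hydroperoxides in membranes, averaged 169 ± 12.5 CPM in control, 169 ± 6.27 CPM at 20 µM and 155 ± 11.6 CPM at 30 µM (SD, n = 3 each). It did not pass at 30 µM against control (log2 -0.12, edgeR adjusted p = 0.0902) or against 20 µM (edgeR adjusted p = 0.0903), but was called lower in 8 and 9 of 22 alternatives, among them those without 30 µM replicate 3 (0.00277 and 0.00283) and without the 3 libraries that deviated together (0.0183 and 0.00197). GPX1 had only 97 to 155 counts in a library, with log2 changes of 0.17 ± 0.16 at 20 µM and 0.03 ± 0.16 at 30 µM, and 8% of its windows also occur in a pseudogene copy.

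In the thioredoxin system, the reductase, thioredoxin and sulfiredoxin rose at 30 µM, while PRDX1 and PRDX2, peroxiredoxins that they keep reduced or repair, fell. TXNRD1 (ENSG00000198431.18, chromosome 12, 104215779 to 104350305, plus strand), cytosolic thioredoxin reductase, had 384, 403 and 399 CPM in control, 429, 414 and 430 CPM at 20 µM and 1457, 1489 and 1415 CPM at 30 µM. The groups did not overlap, but control and 20 µM were close. The level was 3.68-fold higher at 30 µM than in control (log2 1.88 ± 0.032, edgeR adjusted p = 5.81e-31). The smaller rise at 20 µM (log2 0.10 ± 0.032, edgeR adjusted p = 0.0114) was lost without control replicate 1 (edgeR adjusted p = 0.0747), without 20 µM replicate 3 (0.0571) and without the 3 libraries that deviated together (0.168). Of the promoter cores shown above, that of TXNRD1 lies on the strand of its gene, and its second core lies on the opposite strand.

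TXN, thioredoxin itself, averaged 126 ± 7.47 CPM in control, 117 ± 6.89 CPM at 20 µM and 176 ± 4.02 CPM at 30 µM (SD, n = 3 each), a 1.40-fold rise at 30 µM. The CPM of TXNRD1 over that of TXN was 3.17, 3.31 and 2.97 in control, 3.73, 3.70 and 3.44 at 20 µM and 8.33, 8.23 and 8.16 at 30 µM. SRXN1, sulfiredoxin, which repairs over-oxidised peroxiredoxins, had 4.38, 3.34 and 3.27 CPM in control, 5.21, 6.56 and 5.55 CPM at 20 µM and 14.6, 17.2 and 23.4 CPM at 30 µM. The groups stood in the order of dose with no overlap, and the 30 µM libraries were the most spread. It was 5.00-fold higher at 30 µM than in control (log2 2.32 ± 0.18, edgeR adjusted p = 1.52e-08). At 20 µM its rise (log2 0.65 ± 0.19, edgeR adjusted p = 0.0164) did not pass without control replicate 2 (0.0754), control replicate 3 (0.0988), 20 µM replicate 2 (0.0821) or 20 µM replicate 3 (0.0608). An overlapping transcript, AL121758.1, shares 84.6% of the SRXN1 windows and was listed at 0 or 1 count, so reads that fit both may be missing from the 74 to 566 counts of SRXN1, which was not tested.

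Among the peroxiredoxins, PRDX2 had 252, 243 and 230 CPM in control, 226, 241 and 221 CPM at 20 µM and 198, 190 and 196 CPM at 30 µM. Control and 20 µM overlapped, and 30 µM was below both (log2 -0.31 ± 0.038 against control, edgeR adjusted p = 1.25e-08). PRDX1 fell at each dose, averaging 633 ± 26.6 CPM in control, 531 ± 20.5 CPM at 20 µM and 537 ± 8.53 CPM at 30 µM (SD, n = 3 each), and MMACHC shares 18.5% of its windows. PRDX6, which also acts on phospholipid peroxides, had 283 to 302 CPM at 30 µM and 297 to 303 CPM in control and did not pass (log2 -0.04, edgeR adjusted p = 0.340), except as lower with upper-quartile scaling (log2 -0.10, edgeR adjusted p = 0.0108) and library size alone (log2 -0.25, edgeR adjusted p = 4.46e-08).

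Catalase and the superoxide dismutases went separate ways. CAT (ENSG00000121691.7, chromosome 11, 34438925 to 34472062, plus strand), the peroxisomal enzyme that breaks down hydrogen peroxide, had 138, 136 and 136 CPM in control, 150, 151 and 153 CPM at 20 µM and 83.5, 84.1 and 86.9 CPM at 30 µM. It was highest at 20 µM and lowest at 30 µM, with a narrow spread in each group. Against control it was 1.11-fold higher at 20 µM (log2 0.15 ± 0.036, edgeR adjusted p = 0.00167) and 1.61-fold lower at 30 µM (log2 -0.69 ± 0.038, edgeR adjusted p = 3.69e-17), the largest fall among the members. Higher at 20 µM and lower at 30 µM than in control was the pattern of CAT, 1 of 38 members against 2.24% of all genes, joined by GPX2 without control replicate 1. SOD2, the manganese superoxide dismutase of mitochondria, had 210, 214 and 225 CPM in control, 288, 293 and 297 CPM at 20 µM and 518, 522 and 524 CPM at 30 µM. The groups stood in the order of dose with no overlap. SOD2 was 2.41-fold higher at 30 µM (log2 1.27 ± 0.033, edgeR adjusted p = 5.12e-26) and 1.35-fold higher at 20 µM than in control. SOD1, the cytosolic copper and zinc enzyme, was lower than in control at each dose (log2 -0.16 at 30 µM and -0.17 at 20 µM).

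The pentose phosphate pathway returns NADP to NADPH for both reductase systems. Its 3 enzymes among the members, PGD, TALDO1 and TKT, rose at 30 µM against control. TALDO1 did not pass there with library size alone (log2 0.06, edgeR adjusted p = 0.183). PGD, 6-phosphogluconate dehydrogenase, with the promoter core farthest from the start among those shown, had 305, 315 and 296 CPM in control, 309, 341 and 330 CPM at 20 µM and 425, 402 and 421 CPM at 30 µM. Control and 20 µM overlapped and 30 µM was above both (log2 0.45 ± 0.036 against control, edgeR adjusted p = 1.15e-12). Its call at 20 µM (log2 0.10, edgeR adjusted p = 0.0360) was lost in 11 of 22 alternatives. These were the replicate number as a block (0.0505), 6 libraries left out in turn (0.0515 to 0.210) and library size alone (0.0744). The call was also lost with only the groups compared (0.0556), without the 3 libraries that deviated together (0.142) and with limma voom (voom adjusted p = 0.0546).

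TALDO1, transaldolase of the non-oxidative branch, had 154, 143 and 134 CPM in control, 128, 131 and 136 CPM at 20 µM and 170, 173 and 177 CPM at 30 µM. Control and 20 µM overlapped, with 30 µM above both. It fell at 20 µM (log2 -0.13 ± 0.043, edgeR adjusted p = 0.0196) and rose at 30 µM (log2 0.27 ± 0.042, edgeR adjusted p = 1.35e-06) against control. The fall at 20 µM did not pass without control replicate 1 (0.234), control replicate 2 (0.0506), 20 µM replicate 1 (0.0981) or 20 µM replicate 2 (0.0512). TKT, transketolase, averaged 503 ± 12.2 CPM in control, 512 ± 16.5 CPM at 20 µM and 641 ± 11.3 CPM at 30 µM (SD, n = 3 each), and rose 1.27-fold at 30 µM.

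In quinone and heme breakdown, the well-known NRF2 targets NQO1 and HMOX1 fell at 20 µM, and NQO1 but not HMOX1 passed the test as higher at 30 µM than in control. NQO1 (ENSG00000181019.13, chromosome 16, 69706996 to 69726951, minus strand), a quinone reductase, had 804, 785 and 811 CPM in control, 744, 689 and 766 CPM at 20 µM and 969, 982 and 962 CPM at 30 µM. The 20 µM libraries were the lowest and the 30 µM libraries the highest, with no overlap. Against control NQO1 fell at 20 µM (log2 -0.13 ± 0.033, edgeR adjusted p = 0.00303) and rose 1.21-fold at 30 µM (log2 0.28 ± 0.033, edgeR adjusted p = 7.38e-09), a rise that did not pass with library size alone (log2 0.07, edgeR adjusted p = 0.0634). AC092115.2 shares 12.7% of its windows.

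HMOX1, heme oxygenase 1, had 145, 140 and 138 CPM in control, 100, 111 and 109 CPM at 20 µM and 149, 145 and 145 CPM at 30 µM. It was lowest at 20 µM, and the 30 µM libraries lay just above control. It fell 1.32-fold at 20 µM (log2 -0.40 ± 0.040, edgeR adjusted p = 7.87e-10), the largest fall of any member at that dose, and did not pass at 30 µM (log2 0.05, edgeR adjusted p = 0.247), where library size alone gave a fall (log2 -0.16). BLVRB, a flavin and biliverdin IX-beta reductase, rose at 20 µM (log2 0.44 ± 0.11, edgeR adjusted p = 0.002) from few counts, 194 to 281 in a library, and did not pass at 30 µM (log2 0.24, edgeR adjusted p = 0.0642), where it rose without control replicate 2 (edgeR adjusted p = 0.0154).

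The aldo-keto reductases, which reduce aldehydes and steroid ketones with NADPH, summed to 430 ± 9.49 CPM in control, 448 ± 19.8 CPM at 20 µM and 1110 ± 9.72 CPM at 30 µM (SD, n = 3 each). Of the 5, AKR1B10, AKR1C1, AKR1C2 and AKR1C3 rose by over 1 log2 unit at 30 µM against control. AKR1C1 (ENSG00000187134.14, chromosome 10, 4963253 to 4983283, plus strand), a hydroxysteroid dehydrogenase, had 150, 156 and 164 CPM in control, 181, 201 and 186 CPM at 20 µM and 517, 507 and 508 CPM at 30 µM. Its groups stood in the order of dose with no overlap, at 3.26-fold the control level at 30 µM (log2 1.70 ± 0.038, edgeR adjusted p = 1.59e-27).

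AKR1B10 (ENSG00000198074.10, chromosome 7, 134527592 to 134541408, plus strand), a retinal and aldehyde reductase, had 112, 117 and 106 CPM in control, 96.6, 104 and 102 CPM at 20 µM and 345, 347 and 341 CPM at 30 µM. The 20 µM libraries lay just below control and the 30 µM libraries far above it. It was 3.09-fold higher at 30 µM (log2 1.63 ± 0.039, edgeR adjusted p = 4.44e-27) and slightly lower at 20 µM (log2 -0.14 ± 0.040, edgeR adjusted p = 0.0046) than in control, and the fall at 20 µM did not pass without control replicate 2 (0.0667). AKR1C2 averaged 56.9 ± 3.88 CPM at 30 µM and 19.7 ± 1.32 CPM in control, and AKR1C3 averaged 116 ± 4.31 CPM at 30 µM and 55.3 ± 1.28 CPM in control (SD, n = 3 each). The AKR1C genes are close copies, and 21.9% of AKR1C1 windows, 30.1% of AKR1C2 windows and 2.87% of AKR1C3 windows occur in a relative, so their shares of reads are uncertain. AKR1B1, aldose reductase, departed from the others: it fell at 20 µM (log2 -0.25 ± 0.046, edgeR adjusted p = 5.87e-05) and did not pass at 30 µM against control (log2 -0.10, edgeR adjusted p = 0.0729), where 7 of 22 alternatives called a fall, among them those without control replicate 1 (0.0389), 20 µM replicate 2 (0.0473) or 30 µM replicate 3 (0.0440). AKR1B1 was higher at 30 µM than at 20 µM (log2 0.15, edgeR adjusted p = 0.00603), but not without 20 µM replicate 1 (0.0621), and the sign turned with library size alone (log2 -0.04).

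Of the remaining members, OSGIN1, a growth inhibitor induced by oxidative stress, rose in the order of dose. It had 50.8, 51.3 and 49.4 CPM in control, 59.6, 61.7 and 66 CPM at 20 µM and 133, 129 and 132 CPM at 30 µM. It was 2.60-fold higher at 30 µM (log2 1.38 ± 0.044, edgeR adjusted p = 2.05e-23) and 1.24-fold higher at 20 µM than in control, and AC009119.2 shares 11.3% of its windows. UGDH, which makes UDP-glucuronate for conjugation, had 548, 545 and 560 CPM in control, 512, 490 and 540 CPM at 20 µM and 773, 793 and 761 CPM at 30 µM. All 20 µM libraries were below control, by little, and all 30 µM libraries above it. It rose 1.41-fold at 30 µM (log2 0.49 ± 0.033, edgeR adjusted p = 1.03e-14), and its fall at 20 µM (log2 -0.10 ± 0.034, edgeR adjusted p = 0.0198) did not pass without control replicate 3 (0.0749) or without 20 µM replicate 2 (0.154).

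PIR, pirin, an iron-binding nuclear protein, had 28.9, 28.8 and 26.2 CPM in control, 20.8, 22.1 and 24.0 CPM at 20 µM and 21.8, 18.9 and 20.1 CPM at 30 µM. Both treated groups lay below control and overlapped each other. PIR was 1.38-fold lower at 30 µM (log2 -0.47 ± 0.072, edgeR adjusted p = 1.03e-06) and 1.25-fold lower at 20 µM than in control. EPHX1, microsomal epoxide hydrolase, averaged 212 ± 12.8 CPM in control, 260 ± 15.4 CPM at 20 µM and 218 ± 8.77 CPM at 30 µM (SD, n = 3 each). It rose at 20 µM (log2 0.29 ± 0.046, edgeR adjusted p = 3.53e-05) and did not pass at 30 µM (log2 0.04, edgeR adjusted p = 0.539), where library size alone gave a fall (log2 -0.17).

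**Figure D3:**
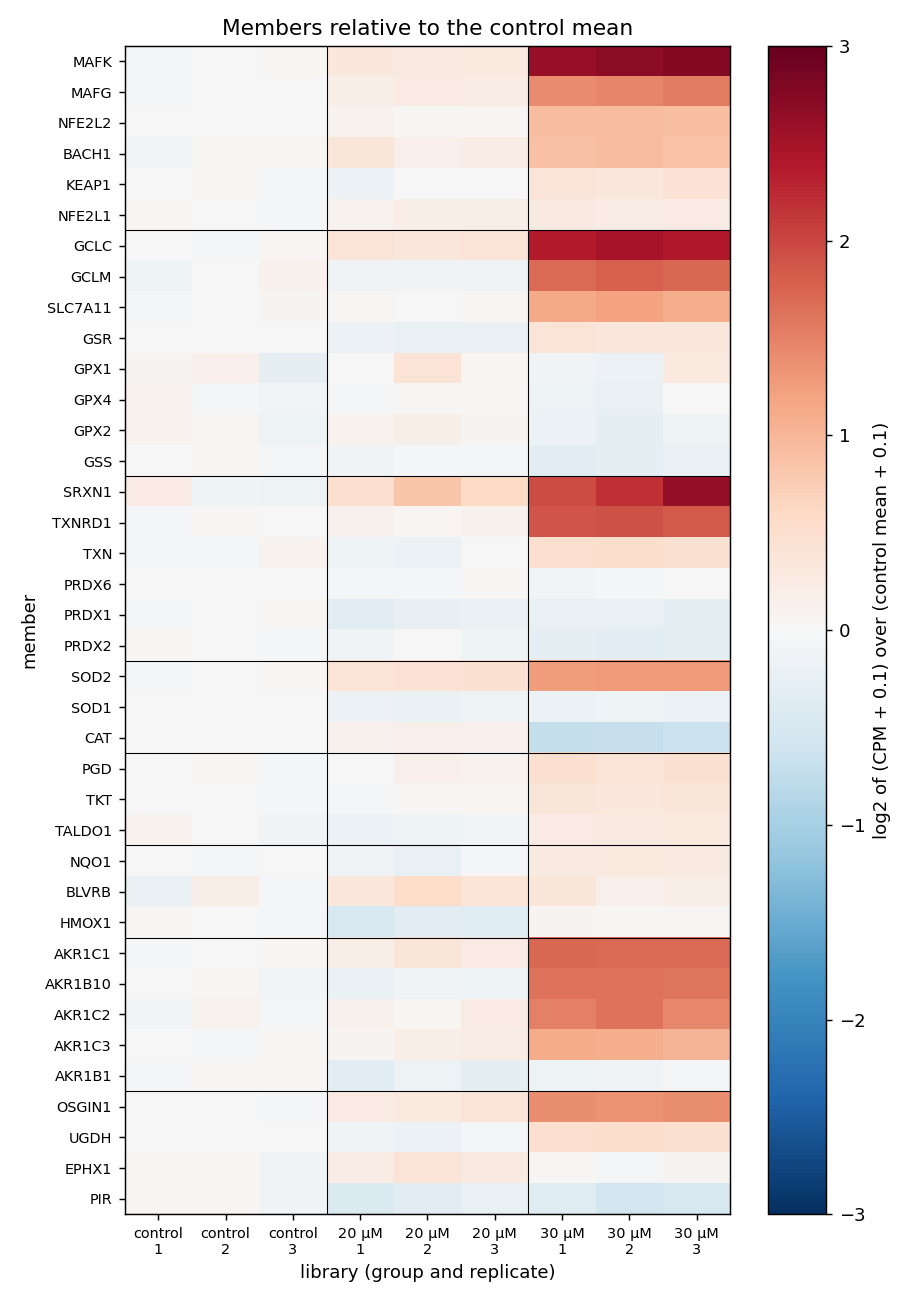
Colour gives the log2 of a library's CPM (plus 0.1) over the control mean (plus 0.1) for each member (rows, by role) and each of the 9 libraries (columns, in the order of dose). SRXN1 is the most spread member at 30 µM (14.6 to 23.4 CPM), GPX1 and BLVRB vary within groups by as much as many of the changes, and values beyond 1 log2 unit are seen in the 30 µM columns alone.

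On a length-corrected scale, CPM per kilobase of GENCODE 29 exons, PRDX1 was the most abundant of the 37 members with a length, at 416 in control, 349 at 20 µM and 353 at 30 µM. NQO1 reached 298 at 30 µM and 246 in control, and GPX2 stood at 272 at 30 µM and 313 in control. TXNRD1 ranked 4 of 37 at 30 µM (217 per kilobase) and 14 in control (58.9 per kilobase), and AKR1B10 ranked 5 at 30 µM and 13 in control. SRXN1, despite its fold change, stayed among the lowest, at 6.81 per kilobase at 30 µM and 1.36 in control.

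Of 69 other genes of the pathway, 66 had enough counts to be tested (GSTP1, ME1 and CBR3 did not), and they moved in both directions. At 30 µM against control 29 rose and 23 fell, 78.8% past the test against 60.8% of all genes and 75.7% of genes of at least 5 CPM, with a median log2 change of 0.10. At 20 µM 26 rose and 12 fell, 57.6% against 34.2% and 49.6%, with a median of 0.14. Between the doses 24 were higher and 26 lower at 30 µM, 75.8% against 57.0% and 72.2%. With library size alone 18 rose and 33 fell at 30 µM against control, and 17 were higher and 34 lower at 30 µM than at 20 µM. The 8 other regulators gave 6 rises and no fall at 30 µM against control, and the 13 other NRF2-linked targets gave 9 rises and 2 falls. Glutathione transferases gave 4 rises and 7 falls of 14, other genes of glutathione use and turnover 5 rises and 8 falls of 15, and the mitochondrial and other thioredoxin genes 3 rises and 5 falls of 12. The 4 other genes of NADPH supply gave 2 rises and 1 fall, that of IDH1 (log2 -0.38).

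Among the genes past the test that averaged at least 5 CPM and whose groups did not overlap, the largest rise was that of MAFF, the remaining small MAF gene, at 104 ± 2.98 CPM at 30 µM and 9.74 ± 0.585 CPM in control (SD, n = 3 each), 10.7-fold higher (log2 3.42, edgeR adjusted p = 4.98e-30), with a rise of 0.85 log2 units at 20 µM. SQSTM1, the autophagy receptor p62 that binds KEAP1, averaged 261 ± 3.76 CPM in control, 444 ± 10.9 CPM at 20 µM and 1809 ± 14.3 CPM at 30 µM, 6.94-fold higher at 30 µM (log2 2.79, edgeR adjusted p = 7.10e-36). GLRX, glutaredoxin, rose by 2.19 log2 units at 30 µM, TXNIP, which binds and inhibits thioredoxin, by 1.58, and ABHD4 by 1.16. Under the same limits the largest falls at 30 µM were those of SESN1, a sestrin (log2 -1.06), GSTCD (log2 -1.01), GPX8 (log2 -1.0), GSTA1 (log2 -0.87), an alpha-class glutathione transferase that rose at 20 µM (log2 0.28), and GGCT, a glutathione turnover enzyme (log2 -0.79). Below 5 CPM, GSTM2 (log2 -1.31), CHAC2 (log2 -1.27) and GSTM1 (log2 -1.17) fell further. Chosen after their values were seen, the mitochondrial counterparts TXN2, TXNRD2 and PRDX3 fell at 20 µM (log2 -0.22, -0.26 and -0.32) and at 30 µM (log2 -0.39, -0.55 and -0.49), while PRDX5, a peroxiredoxin found in mitochondria and elsewhere, rose (log2 0.25 at each dose). BACH2, also chosen so, had 1.46 ± 0.171 CPM at 30 µM and 0.015 ± 0.026 CPM in control (SD, n = 3 each), too few counts in control for its fitted log2 change to measure a fold.

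**Figure D4:**
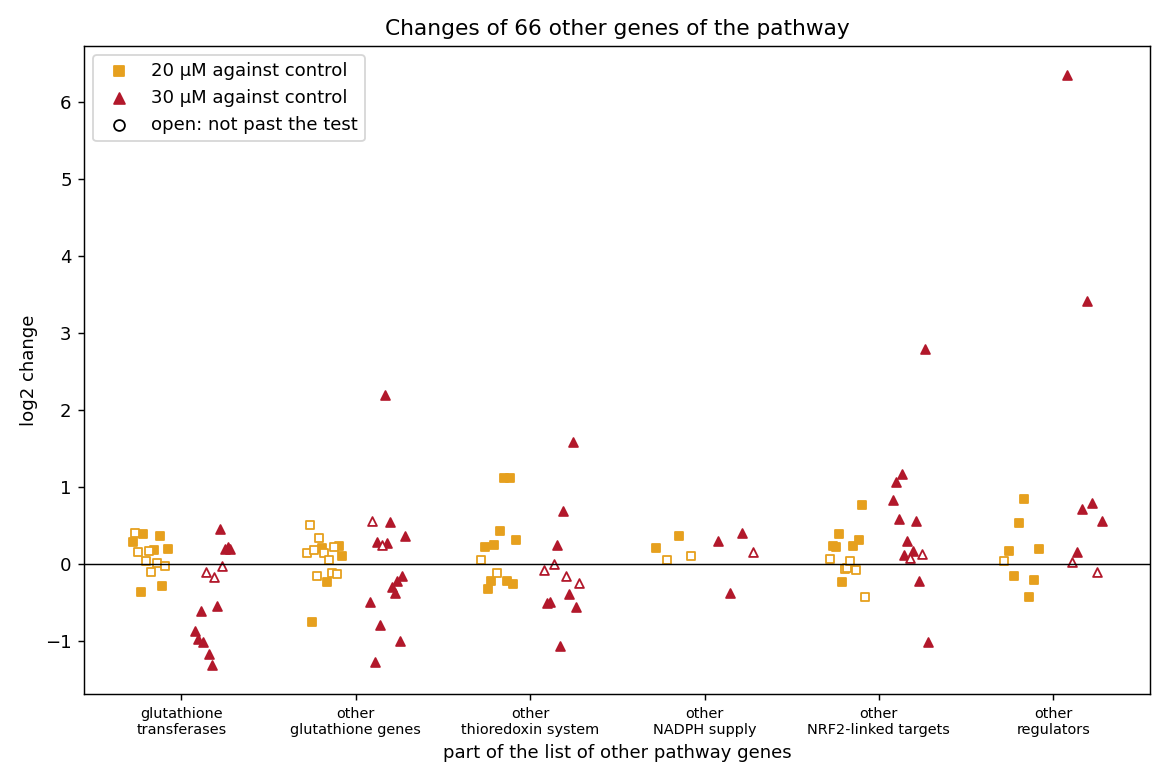
Log2 change (vertical axis) of 66 other pathway genes at 20 µM (squares) and 30 µM (triangles) against control, by sublist, with open symbols for changes that did not pass the test. The glutathione transferases spread from -1.31 to 0.46 at 30 µM, and the highest points are BACH2, whose value rests on almost no counts in control, MAFF at 3.42 and SQSTM1 at 2.79.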

How the data were processed

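The deposited values are whole-number read counts for each gene and library, which the submitters made with FastQC, STAR 2.7.10a and HTSeq on hg38, per the submitters' processing notes. Neither the strand setting nor the annotation release is given in the sources used here, and the labels conflict on the library (polyA RNA against ribosomal depletion of total RNA). The series text adds a lower dose, not analysed here, and a further incubation that may not concern these libraries. HTSeq's closing totals (40.6% to 44.0% of records) were kept out of library sizes.

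From the counts, genes were filtered with filterByExpr (minimum count 10), scaled with TMM factors, and the quasi-likelihood test of edgeR 4.0.16 was fitted over all 9 libraries (R 4.3.3). The SE is the size of a log2 change divided by the square root of F. Positions and exon lengths are from GENCODE 29, where SOD2's identifier is absent. Windows of 75 bases were matched across its transcripts. Replicates differed by more than sampling noise in every pair (chi-square of 2.06 to 7.74 per gene). Correlations of deviations from group means were -0.202 to 0.352 between libraries of the same replicate number and -0.256 to 0.343 between those of different numbers. The main fit did not pair libraries by number.

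All 38 members are named. Values per library are given for the largest rise and fall of each role at 30 µM, members whose direction differs between doses, NFE2L2 and KEAP1. Of the other pathway genes, the 5 largest rises and falls at 30 µM that averaged 5 CPM or more and whose groups did not overlap are named. Members and lists were chosen with earlier results of these data known. Alternatives were other scalings, filters and samples, a replicate block, DESeq2 1.42.0 and limma 3.58.1 voom.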

Additional observations from a re-analysis of the deposited data

Results flagged for a closer look

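For 6 members the doses gave effects of opposite sign against control, each past edgeR's test. Choosing genes this way all but fixes that the doses differ, so the differences between 30 µM and 20 µM are a description. The log2 difference was 0.56 for GSR, 0.40 for TALDO1, 0.41 for NQO1, 1.77 for AKR1B10 and 0.59 for UGDH, each lower at 20 µM and higher at 30 µM than in control. For CAT it was -0.83, higher at 20 µM and lower at 30 µM than in control. The falls of the other 5 at 20 µM lay between -0.20 and -0.10 log2 units, and those of TALDO1, AKR1B10 and UGDH were lost with single libraries left out.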

How the results depend on the processing

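Over 22 alternatives, 3 of them chosen after seeing the data, the counts of members past the test stayed at 31 to 34 for 30 µM against control, 22 to 26 for 20 µM against control and 30 to 36 between the doses, and all 9 counts of members, other pathway genes and all genes stayed within 1.5 times their value. Of the called members, 27 of 31, 18 of 25 and 29 of 30 kept call and direction under all 22. Some members not past the test passed with the same sign under at least 1 alternative. These were 5 of 13 at 20 µM against control, 4 of 7 at 30 µM against control and 5 of 8 between the doses. Further members passed with the sign turned under library size alone: EPHX1 and HMOX1 at 30 µM against control, and PRDX1 and SOD1 between the doses.

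With the replicate number as a block, 31, 24 and 30 members passed in these comparisons. The only call it ended among them was that of PGD at 20 µM (edgeR adjusted p = 0.0505).

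Of the changes that turned sign, AKR1B1 between the doses (0.15) had passed the test and the rest had not. At 30 µM against control, upper-quartile scaling gave -0.026 for EPHX1, -0.031 for GPX1 and -0.0075 for HMOX1, and library size alone gave -0.17, -0.18 and -0.16. Between the doses, upper-quartile scaling gave -0.0030 for NFE2L1, -0.062 for PRDX1 and -0.062 for SOD1, and library size alone gave -0.12, -0.18 and -0.18, with -0.041 for AKR1B1. Under library size alone the turned changes of EPHX1 (edgeR adjusted p = 0.000888) and HMOX1 (0.000751) at 30 µM against control passed the test. So did those of NFE2L1 (0.0027), PRDX1 (2.86e-05) and SOD1 (5.07e-05) between the doses. Those of GPX1 at 30 µM against control (0.331) and AKR1B1 between the doses (0.463) did not. With a mean of at least 50 counts, PRDX1 gave -0.0042 and SOD1 -0.0043. At 20 µM against control, library size alone gave -0.014 for GPX4 and upper-quartile scaling 0.0059 for PRDX6. Without the 3 libraries that deviate together, GPX1 at 30 µM gave -0.088 and SLC7A11 at 20 µM -0.020. With each library left out in turn, EPHX1 at 30 µM ranged from -0.019 to 0.067 and GPX1 at 30 µM from -0.13 to 0.12. At 20 µM, GPX4 ranged from -0.040 to 0.065, PRDX6 from -0.036 to 0.0050 and SLC7A11 from -0.0025 to 0.065. Between the doses, GPX1 ranged from -0.30 to 0.0026, PRDX1 from -0.020 to 0.039 and SOD1 from -0.0040 to 0.032. Library size alone and upper-quartile scaling shift all genes; the cause of the other turns was not tested.

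Depth limits GPX1, BLVRB and SRXN1, with 74 to 566 counts in a library. With 3 libraries a group, an exact permutation test of a single gene cannot go below 0.1, so calls rest on the spread shared across genes. Another counting rule for reads shared with overlapping or copied genes (SRXN1, the AKR1C genes) was not tested.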
